A study of Homo sapiens with 3 samples.

Results

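The HOX genes of the HOXA, HOXB, HOXC and HOXD clusters were examined for nearby Fra-1 and Fra-2 peaks in the breast cancer line MDA-MB-231. Members were the protein-coding genes whose symbol in the GENCODE annotation of GRCh37 is HOXA, HOXB, HOXC or HOXD followed by digits, which gave 39 of 19748 protein-coding genes. HOXA held 11 of them, HOXB 10, HOXC 9 and HOXD 9. Peaks were assigned to a member when they lay within 100 kb of a start of transcription (TSS) of one of its protein-coding transcripts, a reach that also covers the 4 clusters themselves. This took in 6 of the 9998 Fra-1 peaks and 8 of the 13003 Fra-2 peaks.

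MDA-MB-231 is an established human line, labelled triple-negative and basal B. Chromatin immunoprecipitation followed by sequencing (ChIP-seq) was done with an antibody to Fra-1, with an antibody to Fra-2, and on input DNA; all samples were the same line grown in medium with serum and no other treatment is labelled. The labels mention 2 independent replicates of each, but each antibody has a single peak list and the input was not used here, so no value has a spread between replicates and no difference was tested. The lists give positions on a grid of 50 bp, without heights or scores, and depth is unknown. Intervals are 95% exact intervals (Clopper-Pearson for shares, Poisson for densities), take in counting error only, and take peaks as independent although they come in groups.

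HOX genes encode homeodomain transcription factors that give cells their position along the head-to-tail axis. They lie in tight clusters on separate chromosomes, and their numbers follow their order: members with low numbers act towards the head and those with high numbers towards the trunk and limbs. Equal numbers in different clusters mark paralogues. In differentiated cells whole stretches of the clusters are held silent by Polycomb complexes or kept active by Trithorax complexes, and single members are often active again in tumours. Fra-1 and Fra-2 are Fos-family proteins that pair with Jun proteins and bind the AP-1 element, TGAGTCA, which reads TGACTCA on the other strand.

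The sequences of 4 peaks carry most of what follows, and are given on the plus strand of GRCh37 (hg19) from the first to the last listed position, 5′ to 3′, with the AP-1 element in capitals. The first is the single peak found inside any cluster, a Fra-2 peak in an intron of HOXA3. The next 2 lie on the HOXB1 side of the HOXB cluster: the Fra-2-only peak nearest to HOXB1, and a shared peak without the element, whose width was not exceeded near any member. The last is the shared peak nearest to HOXB13, also without the element.
HOXA3 intron, Fra-2, chr7:27151001-27151151: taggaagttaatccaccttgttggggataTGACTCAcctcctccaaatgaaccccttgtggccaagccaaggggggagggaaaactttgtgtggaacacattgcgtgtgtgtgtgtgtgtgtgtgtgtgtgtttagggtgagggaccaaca
HOXB1 side, Fra-2 only, chr17:46583251-46583451: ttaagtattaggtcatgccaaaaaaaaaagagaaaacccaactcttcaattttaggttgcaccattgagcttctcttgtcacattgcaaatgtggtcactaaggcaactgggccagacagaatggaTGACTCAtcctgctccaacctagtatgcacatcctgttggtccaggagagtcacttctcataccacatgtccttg
HOXB1 side, both lists, chr17:46560851-46561101: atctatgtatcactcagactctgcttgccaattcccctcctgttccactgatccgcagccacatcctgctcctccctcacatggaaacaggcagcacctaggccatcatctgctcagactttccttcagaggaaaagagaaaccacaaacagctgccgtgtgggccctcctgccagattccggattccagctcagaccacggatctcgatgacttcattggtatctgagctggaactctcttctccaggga
HOXB13 side, both lists, chr17:46831351-46831451: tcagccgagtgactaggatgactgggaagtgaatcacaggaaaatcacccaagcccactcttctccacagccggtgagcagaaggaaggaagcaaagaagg

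The 4 clusters were nearly free of peaks. Over 523 kb from the first to the last base of their members, no Fra-1 peak and 1 Fra-2 peak were listed. This came to 0 Fra-1 peaks per Mb (0 to 7.06) and 1.91 Fra-2 peaks per Mb (0.0484 to 10.7), against 3.49 and 4.55 per Mb over all nuclear chromosomes. The intervals include the densities of the whole genome, so a shortage inside the clusters was not detectable with this length of sequence. Within 100 kb of a member TSS, over 1313 kb, the densities were 4.57 Fra-1 peaks per Mb (1.68 to 9.95) and 6.09 Fra-2 peaks per Mb (2.63 to 12.0), and these intervals also include the densities of the whole genome. In the 1 Mb to each side of the clusters together there were 34 Fra-1 peaks and 46 Fra-2 peaks, or 4.25 per Mb (2.94 to 5.94) and 5.75 per Mb (4.21 to 7.67). Of these, 14 Fra-1 and 19 Fra-2 peaks were in the 1 Mb on the HOXB1 side of HOXB.

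**Figure D1:**
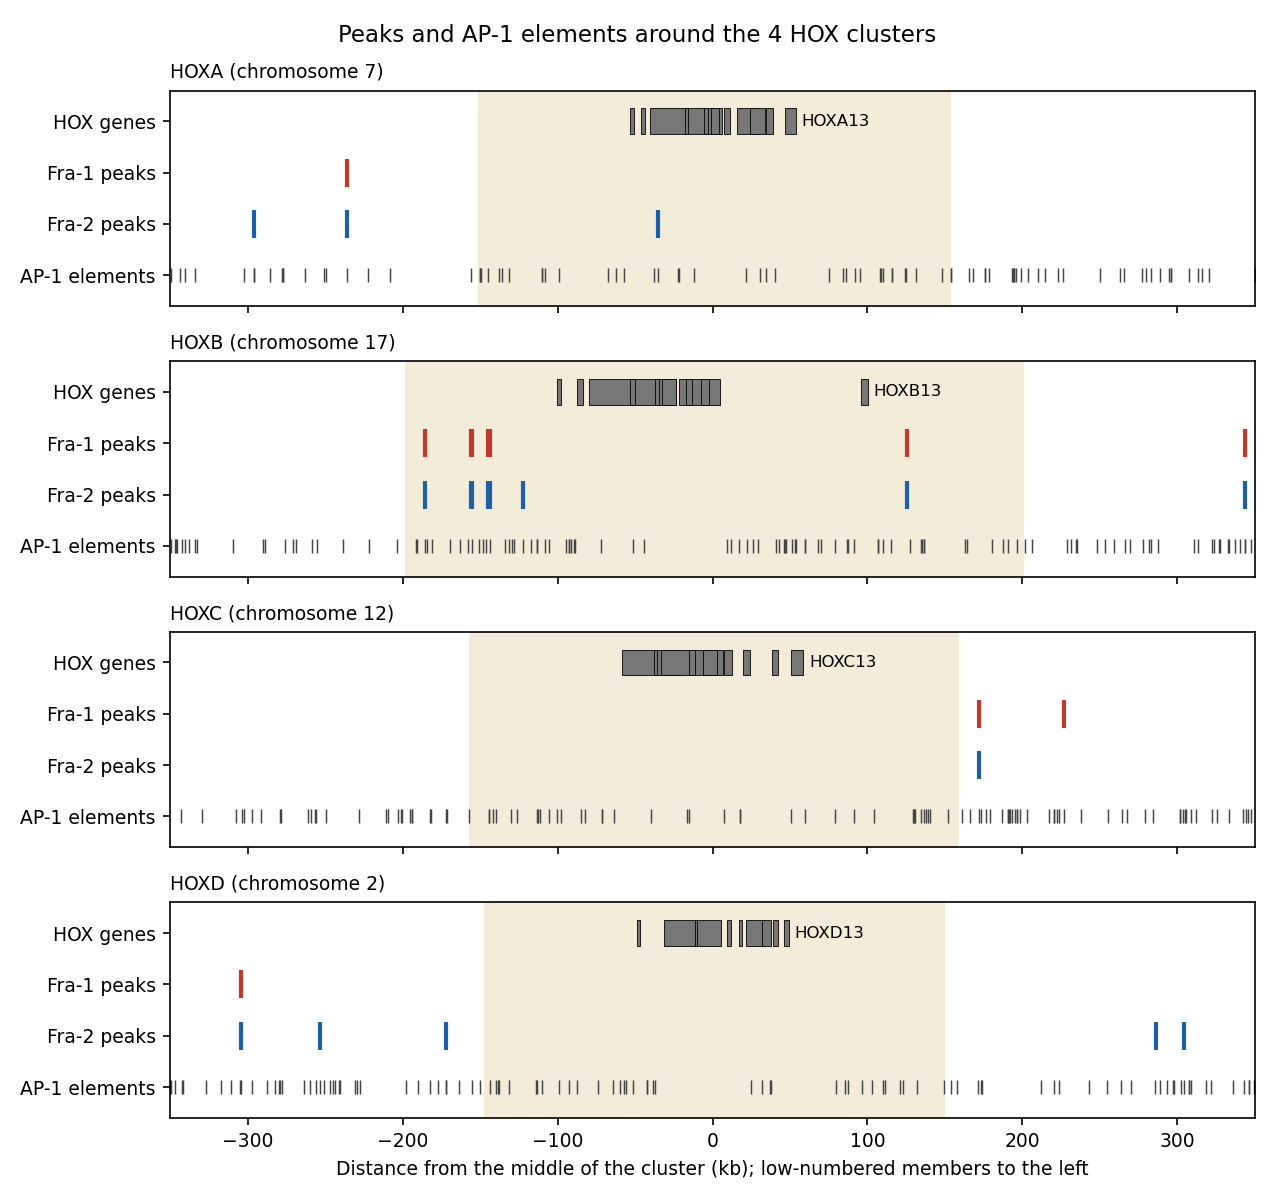
Peaks (red, Fra-1; blue, Fra-2), HOX genes (grey boxes) and copies of the AP-1 element (thin black ticks) around each HOX cluster, by distance in kb from the middle of the cluster; shading marks sequence within 100 kb of a member TSS. All 6 Fra-1 peaks and 7 of the 8 Fra-2 peaks in the shaded parts are at HOXB, outside the row of genes, and the remaining Fra-2 peak is within HOXA.

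Of the 39 members, 5 had a Fra-1 peak within 100 kb, against 43.1% of all protein-coding genes, and 18 had a Fra-2 peak, against 56.2%. Put as shares, these were 12.8% of members for Fra-1 and 46.2% for Fra-2. Members of a cluster share peaks, so the 39 genes stand for 4 loci and not for 39 observations. By locus, a Fra-1 peak was in reach of 1 cluster, HOXB, and a Fra-2 peak of 2, HOXA and HOXB. The 5 genes near Fra-1 all had a Fra-2 peak as well, 13 had a Fra-2 peak alone, and 21 had neither, where 40.4%, 15.8% and 41.1% of all protein-coding genes fell in these classes.

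The nearest peaks were then compared without a limit on distance. The median member lay 192 kb from its nearest Fra-1 peak and 107 kb from its nearest Fra-2 peak, against 130.0 kb and 78.3 kb for all protein-coding genes. No member lay within 10 kb of a Fra-1 peak (9.1% of all genes), and 2 members, HOXA2 and HOXA3, lay within 10 kb of a Fra-2 peak (14.6%). At 200 kb the order of the shares differed between the factors: 20 members had a Fra-1 peak (62.1% of all genes) and 35 a Fra-2 peak (74.3%). As shares of members these were 51.3% and 89.7%, so for Fra-2 the members' share was above that of all genes at this distance. The Fra-2 peaks near members rose only from 8 within 100 kb to 11 within 200 kb. HOXC and HOXD members were reached through a single Fra-2 peak per cluster.

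**Figure D2:**
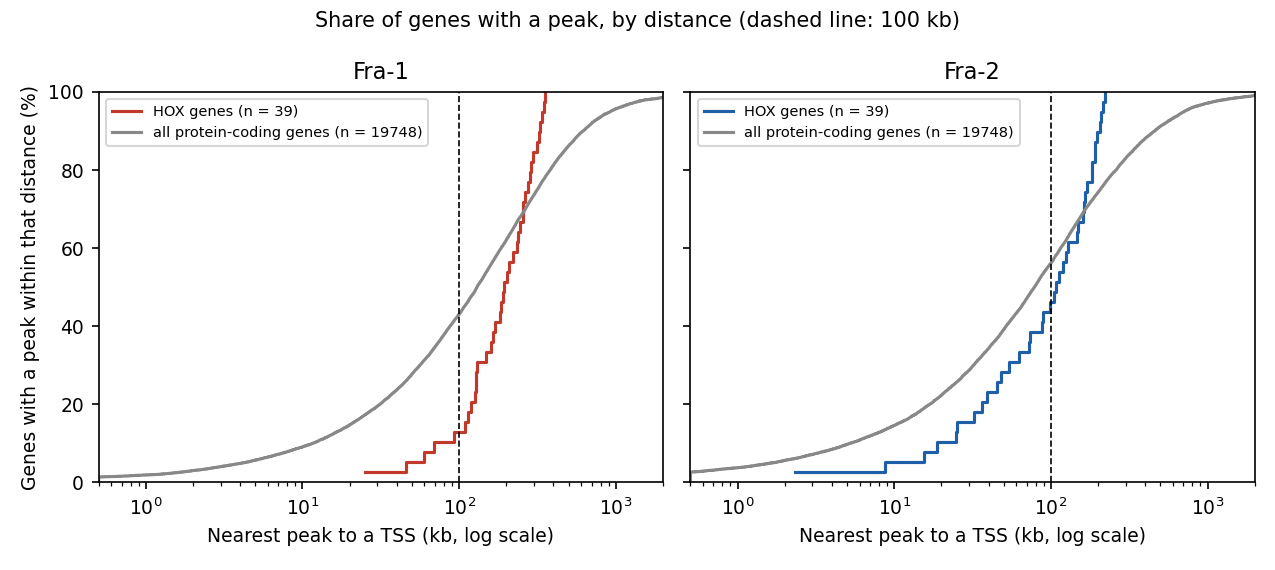
Share of genes (%) with a peak within a given distance of a TSS (kb, log scale), for the 39 HOX genes (coloured) and all 19748 protein-coding genes (grey), with Fra-1 on the left and Fra-2 on the right. At the dashed line of 100 kb the HOX genes stand at 12.8% and 46.2%, below all genes at 43.1% and 56.2%, and the HOX lines end at 353 kb for Fra-1 and 221 kb for Fra-2.

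Members were also grouped by their place along the body axis. Of 8 members in paralogue groups 1 to 3, which pattern the hindbrain and neck, 3 had a Fra-1 peak and 6 a Fra-2 peak. Of 15 members in groups 4 to 8, which pattern the trunk, 1 had a Fra-1 peak and 7 a Fra-2 peak. Of 16 members in groups 9 to 13, which pattern the lower trunk and limbs, 1 had a Fra-1 peak and 5 a Fra-2 peak. The shares over all protein-coding genes, 43.1% for Fra-1 and 56.2% for Fra-2, are the background for each group. All of these peaks belong to HOXA and HOXB, and no order along the axis was tested.

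Other rules of assignment gave other counts. Within 50 kb, 2 members had a Fra-1 peak (27.7% of all genes) and 11 a Fra-2 peak (39.2%). From the 5′ end of each gene alone, 4 members had a Fra-1 peak within 100 kb (40.6%) and 18 a Fra-2 peak (53.7%). With peaks at least 200 bp wide, 4 had a Fra-1 peak (26.5%) and 6 a Fra-2 peak (37.6%). When each peak within 100 kb was given only to the gene of its nearest protein-coding TSS, HOXB1 and HOXB13 had a Fra-1 peak (18.6% of all genes had one), and HOXA3, HOXB1 and HOXB13 a Fra-2 peak (24.8%).

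The HOXA cluster (chromosome 7, 27132612 to 27239710, minus strand) held the Fra-2 peak printed first. The peak, from 27151001 to 27151151, was 150 bp wide and centred in introns of HOXA3 and of the antisense transcript HOXA-AS2, 2.31 kb downstream of the nearest HOXA3 TSS at 27153464. HOXA3 patterns the pharyngeal arches and neck organs. The peak held 1 AP-1 element and a run of GT repeats, and was not in the Fra-1 list, whose nearest peak had its centre 201 kb away. As it was the sole Fra-2 peak in reach, each of the 11 HOXA genes had the same count of 0 Fra-1 peaks and 1 Fra-2 peak. Distances to it were 8.70 kb for HOXA2, 18.7 kb for HOXA4, 32.2 kb for HOXA5, 53.9 kb for HOXA9 and 88.6 kb for HOXA13. The Fra-2 call for the whole cluster thus rests on a single peak, and without it no HOXA gene would have a peak within 100 kb. The nearest Fra-1 peak was shared with Fra-2, lay in an intron of the neighbouring gene SKAP2 from 26949951 to 26950101, held an AP-1 element, and was 192 kb from HOXA2 and 289.6 kb from HOXA13.

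HOXB (chromosome 17, 46605888 to 46806112, minus strand) was the cluster with most peaks in reach, 6 for Fra-1 and 7 for Fra-2. Its density within 100 kb of a TSS was 15.1 Fra-1 peaks per Mb (5.53 to 32.8) and 17.6 Fra-2 peaks per Mb (7.07 to 36.3), intervals that lie above the 3.49 and 4.55 per Mb of all nuclear chromosomes. HOXB was singled out among the 4 clusters after these counts were seen, and peaks come in groups, and the intervals account for neither. None of these peaks lay between HOXB1 and HOXB13. All but 1 in each list were on the HOXB1 side, between HOXB1 and SKAP1, a gene of a T-cell adaptor protein. SKAP1 had 9 peaks of each factor within 100 kb, more than any HOXB gene. All 7 other protein-coding genes with a TSS within 200 kb of a HOXB TSS, SKAP1 among them, had a peak of each factor within 100 kb.

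On the HOXB1 side 5 Fra-1 peaks and 6 Fra-2 peaks ran over 63.1 kb towards SKAP1. Nearest to HOXB1, a regulator of hindbrain segments, was the Fra-2-only peak from 46583251 to 46583451, 24.8 kb from its TSS and 200 bp wide, with 1 AP-1 element. Among the shared peaks on that side, one had the same limits in both lists, 46560851 to 46561101, 47.2 kb from HOXB1. No peak near a member was wider than its 250 bp, and its sequence, printed above, held no AP-1 element. Both it and the Fra-2-only peak had HOXB1 as their nearest protein-coding TSS.

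The other peaks described on that side lay nearer to SKAP1 than to HOXB1. A pair of shared peaks with 1 AP-1 element, Fra-1 from 46550501 to 46550651 and Fra-2 from 46550451 to 46550601, sat 57.6 kb and 57.7 kb from HOXB1. Beside it were a Fra-1 peak without a Fra-2 partner, from 46550051 to 46550201, and a Fra-2 peak without a Fra-1 partner, from 46550301 to 46550401, whose centres were 225 bp apart. Neither held an AP-1 element within 100 bp of its centre, and in each of these windows the TEAD consensus GGAATG was found 2 times. Within 200 bp of the centre the Fra-2 peak had 1 AP-1 element and the Fra-1 peak 0. That element was the one inside the adjacent shared Fra-2 peak. The farthest peak had the same limits in both lists, 46520351 to 46520451, held 1 AP-1 element and was 12.8 kb from SKAP1 and 87.8 kb from HOXB1.

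Along the HOXB row the counts followed the distance from these peaks. HOXB1 had 5 Fra-1 and 6 Fra-2 peaks. HOXB2 and HOXB3, which act in the hindbrain, had 4 Fra-1 and 5 Fra-2 peaks each. HOXB3 has 9 annotated TSSs, and its 5′ end at 46682274 was more than 100 kb from any Fra-1 peak. HOXB4, also known as a regulator of blood stem cells, had 2 and 3. HOXB5 and HOXB6 had 0 Fra-1 peaks and 1 Fra-2 peak each, HOXB6 at 98.9 kb and so just inside the limit. HOXB7, HOXB8 and HOXB9 had no peak of either factor, and HOXB7 lay just outside the limit with a Fra-2 peak at 105 kb and a Fra-1 peak at 126 kb. HOXB7 and HOXB9 have both been studied as promoters of invasion in breast cancer.

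HOXB13, a posterior member known for its role in the prostate, stands apart from the row and had a different peak in reach. It was shared, with the same limits of 46831351 to 46831451 in both lists, 100 bp wide, intergenic, and 25.2 kb upstream of the HOXB13 TSS. No other protein-coding TSS was nearer, and the peak held no AP-1 element within 200 bp of its centre. It was not particular to HOXB13, as it was also the nearest peak of both factors to PRAC2 (30.3 kb) and PRAC1 (31.5 kb). HOXB13 was thus the member nearest to a Fra-1 peak, followed by HOXB1 at 45.8 kb.

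**Figure D3:**
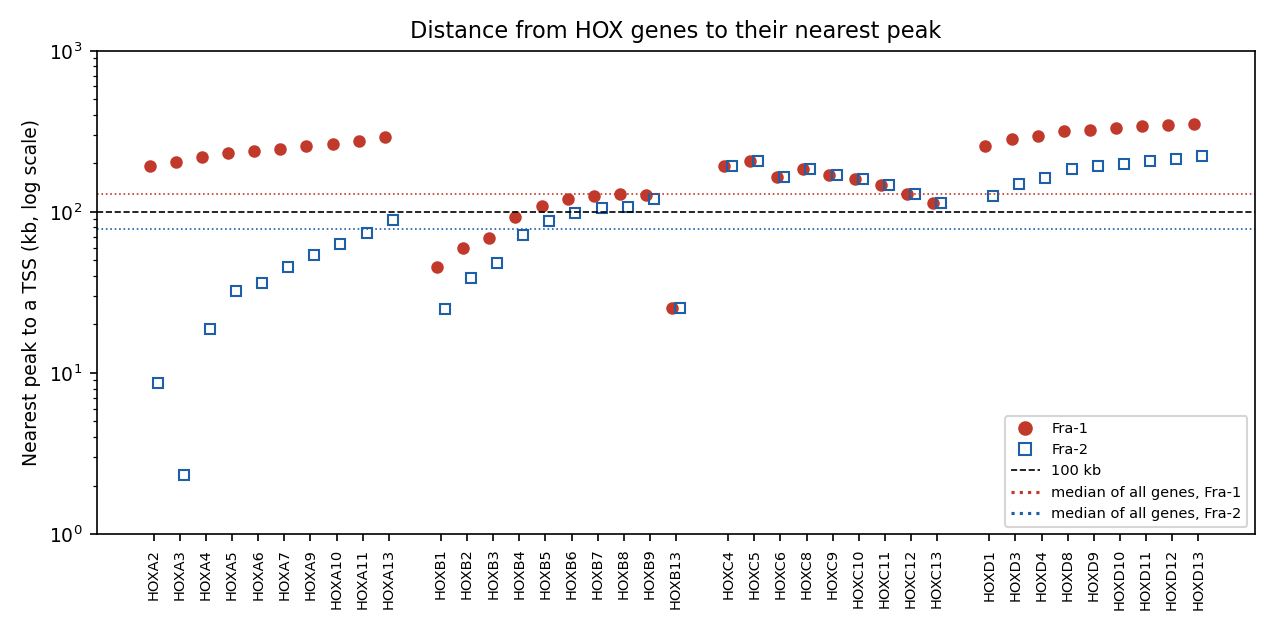
Distance from HOX genes to their nearest Fra-1 peak (filled red circles) and Fra-2 peak (open blue squares), in kb on a log scale, with the 100 kb limit (dashed) and the medians of all protein-coding genes (dotted, 130.0 kb for Fra-1 and 78.3 kb for Fra-2). The Fra-2 squares of HOXA dip to 2.31 kb at HOXA3, the HOXB genes lie between 24.8 and 128 kb, and every HOXC and HOXD gene is above 100 kb for both factors. Of the 39 members, 1 is not shown.

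HOXC (chromosome 12, 54332615 to 54449814, plus strand) had no peak of either factor within 100 kb. The nearest site was shared and lay beyond HOXC13, a gene of hair and nail formation, from 54219201 to 54219351 in the Fra-1 list and 54219251 to 54219401 in the Fra-2 list. It was 113 kb from the HOXC13 TSS in both lists, within an intron of a long non-coding RNA gene, and held an AP-1 element. HOXC5 was the farthest member, at 207 kb for both factors. On the HOXC4 side the next peak was 879 kb from the cluster for Fra-1 and 355 kb for Fra-2. This Fra-2 peak lay in an intron of ITGA5, an integrin gene. The whole cluster thus sat in a stretch of 1109.8 kb without a Fra-1 peak and 586 kb without a Fra-2 peak, and stretches at least as long hold the gene start of 33.2% and 40.1% of all protein-coding genes.

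HOXD (chromosome 2, 176957449 to 177055635, plus strand) was the cluster farthest from Fra-1 peaks. Its members, which shape limbs and digits at the HOXD13 end, lay 258 kb (HOXD1) to 353 kb (HOXD13) from the nearest Fra-1 peak, and 125 kb to 221 kb from the nearest Fra-2 peak. The nearest Fra-1 peak, from 177310901 to 177311001, was shared and held an AP-1 element. The nearest Fra-2 peak, from 177178701 to 177178851, was in the Fra-2 list only and lay in an intron of MTX2. It held no AP-1 element within 100 bp of its centre, but 2 copies were within 200 bp. On the HOXD13 side the next Fra-1 peak was 1829 kb from the cluster and the next Fra-2 peak 237 kb. The stretch without a Fra-1 peak around HOXD was 2182 kb, and 12.3% of all protein-coding genes start in one at least as long. For Fra-2 the stretch was 458 kb, close to the median of 447 kb over all genes.

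Without a Fra-1 peak, the stretches around HOXA and HOXB were shorter than those around HOXC and HOXD. They measured 768 kb around HOXA and 269 kb around HOXB, against a median of 702 kb over all protein-coding genes. The Fra-2 stretch around HOXB measured 248 kb. The HOXA genes were divided by the HOXA3 intron peak into 2 genes in a stretch of 201 kb and 9 in one of 529.8 kb.

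The AP-1 element itself was present in and around the clusters, mostly outside peaks. The 4 clusters held 55 copies, of which 31 were in HOXB, 9 in HOXA, 8 in HOXD and 7 in HOXC. This was 105 copies per Mb, against 161 per Mb over all nuclear chromosomes, in sequence of 49.3% to 52.6% GC. Fra-1 peaks held none of the 55 copies (0%, 0 to 6.49) and Fra-2 peaks held 1 (1.82%, 0.0460 to 9.72). Over the nuclear genome Fra-1 peaks held 1.56% of copies and Fra-2 peaks 2.27%, so at this number of copies no difference was detectable. Within 100 kb of a member TSS, Fra-1 peaks held 3 of 179 copies (1.68%, 0.347 to 4.82) and Fra-2 peaks 5 (2.79%, 0.913 to 6.40).

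Near the gene starts the element was found within 1 kb of a TSS of 5 of 39 members (HOXA10, HOXB3, HOXB4, HOXC6 and HOXD10), or 12.8%, against 35.8% of all protein-coding genes. Genes differ in how many TSSs are annotated. With the 5′ end of each gene alone, the count was 5 of 39 (12.8%, 4.30 to 27.4) against 21.0% of all genes, a share inside the interval. None of these copies lay in a peak, as no peak was within 1 kb of a member TSS. Within 100 kb each member had 14 (HOXC11) to 43 (HOXB3) copies, with a median of 23 against 33 for all genes.

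In sharing, the AP-1 element and width, the peaks near members were close to the lists as a whole. With 6 and 8 peaks the intervals are wide, and no difference in these shares was detectable. Median GC around the centre was 50% for Fra-1 peaks near members against 45.3% for the full list. For Fra-2 it was 47.3% against 46.8%. Of the 6 Fra-1 peaks, 5 were shared with Fra-2 (83.3%, 35.9 to 99.6), against 80.4% of all nuclear Fra-1 peaks. Of the 8 Fra-2 peaks, 5 were shared with Fra-1 (62.5%, 24.5 to 91.5), against 61.6%. The AP-1 element lay within 100 bp of the centre of 3 Fra-1 peaks (50%, 11.8 to 88.2), against 56.8% of all, and of 5 Fra-2 peaks (62.5%, 24.5 to 91.5), against 67.5%. Widths ran from 100 to 250 bp with a median of 150 bp, which is also the median of both full lists. None of the 14, where a shared site counts once in each list, met the definition of a repeat-like region. That definition looks at the 1 kb to each side of a centre and at assembly gaps. The HOXA3 intron peak still holds a short run of GT repeats. Most nuclear peaks also lay outside such regions: 8475 of the 9970 in the Fra-1 list, and 11402 of the 12993 that Fra-2 had. With 6 and 8 peaks, finding none therefore shows no difference. Shares and densities given for the whole lists include repeat-like peaks.

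Motifs of other factors were sought in the same windows on both strands. The TEAD consensus GGAATG, bound by the partners of YAP and TAZ, was in 2 of 6 Fra-1 and 2 of 8 Fra-2 windows, against 26.3% and 22.8% of the windows of all peaks. The homeodomain core TAATTA was in none of them, against 2.60% and 2.49%, and the HOX-PBX site TGATNNAT was in none, against 16.0% and 15.04%. The cyclic AMP response element TGACGTCA (0.201% and 0.393% of all) and the CTCF core (0.0702% and 0.2001%) were not found either. With 6 and 8 windows, a motif found in none could still be in up to 45.9% and 36.9% of such windows.

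**Figure D4:**
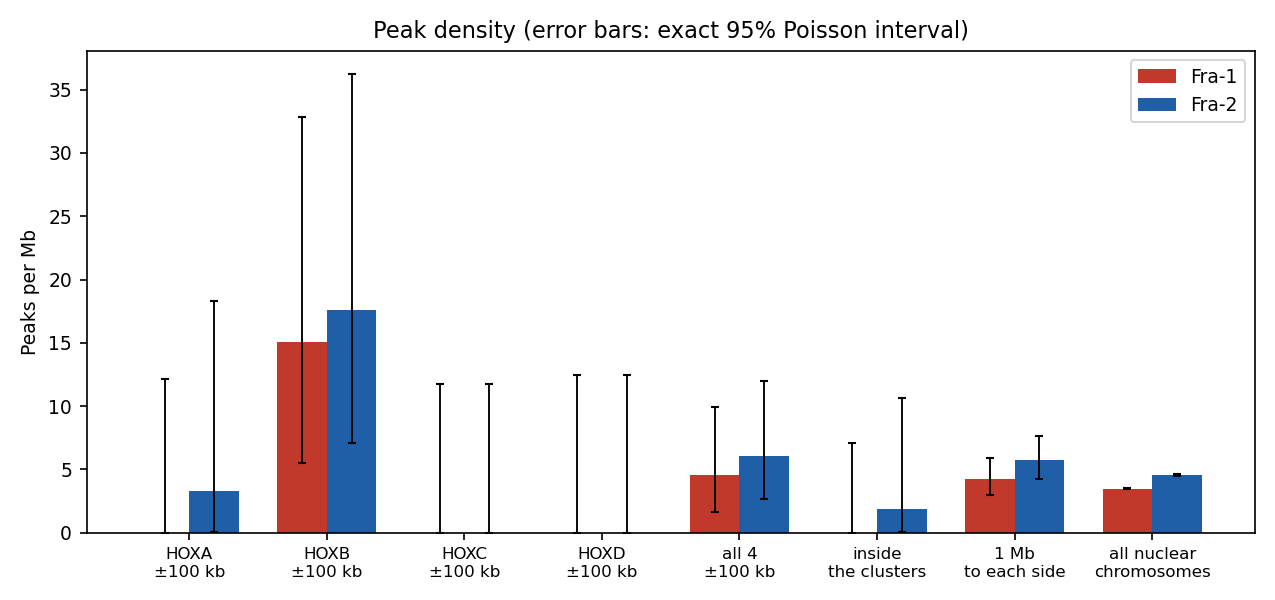
Peaks per Mb for Fra-1 (red) and Fra-2 (blue) within 100 kb of the TSSs of each cluster, of all 4 together, inside the clusters, in 1 Mb to each side of them, and over all nuclear chromosomes, with exact 95% Poisson intervals as error bars. HOXB stands at 15.1 and 17.6 peaks per Mb, HOXC and HOXD at 0 with upper limits of 11.7 and 12.5, and the 4 together at 4.57 and 6.09, near the whole genome at 3.49 and 4.55.

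Non-coding genes within the clusters were looked at next. Of 28 long non-coding RNA genes overlapping a cluster, none held a Fra-1 peak (6.8% of all such genes held one) and HOXA-AS2 alone held a Fra-2 peak (8.61%). Genes differ in length, and these shares were not adjusted for it. HOTAIR, a transcript of the HOXC cluster linked to metastasis of breast cancer, started 149 kb from the nearest peak of each factor. HOTTIP, at the HOXA13 end, started 288 kb from a Fra-1 peak and 87.0 kb from a Fra-2 peak. Of all microRNA genes 0.132% held a peak of each factor, a share too low for a shortage among 7 genes to show. None of the 7 microRNA genes in the clusters held a peak of either factor. Among them MIR10B, also linked to metastasis, was 296 kb from a Fra-1 peak and 164 kb from a Fra-2 peak.

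Genes that act with the HOX genes were counted in the same way. Among PBX, MEIS and PKNOX genes, whose proteins bind DNA together with HOX proteins, 4 of 9 had a Fra-1 peak within 100 kb and 6 of 9 a Fra-2 peak. Polycomb subunits had Fra-1 peaks near 11 of 27 genes and Fra-2 peaks near 18 of 27, and Trithorax and COMPASS subunits near 9 and 12 of 22. Other homeobox genes of the same class, such as the EVX, DLX, CDX and EN genes, had Fra-1 peaks near 7 of 21 and Fra-2 peaks near 6 of 21. The background for each was 43.1% for Fra-1 and 56.2% for Fra-2. EVX1 and EVX2, which adjoin HOXA13 and HOXD13, had no peak within 100 kb.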

How the data were processed

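The members and lists were chosen with earlier results of these data known. The authors deposited 1 peak list per antibody, with the start and end of each peak and no score, height or p-value. The submitters' processing notes name Bowtie2 and hg19. How peaks were called, at which threshold, and how the input and the 2 replicates entered is not stated in the sources used here. All starts lie 1 above a multiple of 50 and were read as 1-based. Whether the listed ends belong to the peaks is not stated. Widths are end minus start, while printed sequences include both listed positions and so are 1 base longer. Depth is unknown.

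Distances, overlaps and motifs were computed with samtools 1.23.1, scipy 1.17.1, pandas 2.3.3, numpy 2.4.6 and Python 3.11.15 on GRCh37 with GENCODE 44. Genes of chromosomes Y and M were left out, and gene IDs with the same symbol counted once. Peaks with at least 1 bp in common were called shared. A distance runs from the nearest edge of a peak to a TSS. Repeat-like regions were chromosome Y, sequence within 1 Mb of a gap of at least 1 Mb in the assembly, and centres whose neighbourhood of 1 kb to each side had over 20% recurring words of 10 bases. No test was run, as each antibody has 1 list; the distance and overlap code was tested on simulated data. The rule for named items was the members, the peaks inside or within 100 kb of a cluster, and the nearest peaks outside each; some of these are not reported here. The alternatives were other distances, overlap rules, motif windows, TSS sets and a minimum width of 200 bp.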

Additional observations from a re-analysis of the deposited data

How the results depend on the processing

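Counts of members depended on the reach. Within 10 kb 0 members had a Fra-1 peak and 2 a Fra-2 peak (9.1% and 14.6% of all genes). Within 50 kb the counts were 2 and 11 (27.7% and 39.2%), and within 200 kb 20 and 35 (62.1% and 74.3%). With each peak given to its nearest protein-coding TSS, 2 and 3 members had one (18.6% and 24.8%), and among peaks at least 200 bp wide 4 and 6 (26.5% and 37.6%). Peaks near members numbered 3 for Fra-1 and 5 for Fra-2 within 50 kb, 1 and 3 at least 200 bp wide, and 3 and 5 with a HOX gene as nearest. At that width no Fra-2 peak was inside a cluster (0). The shared part of the Fra-1 peaks was 100% with centres within 500 bp, and 100% of the single Fra-1 peak at least 200 bp wide. A smaller reach or a minimum width removes peaks by construction. The remaining alternatives, among them the 5′ end of the gene, transcripts of every type, peaks outside repeat-like regions (these 2 chosen after the data were seen) and other motif windows, left counts within 1.5 times and shares within their intervals. No paired analysis was possible because each antibody has a single list and no result comes from a test. The number of peaks near members, 6 and 8, limits every share above.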
